A study of Mus musculus with 9 samples.

Results

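The AP-1 and immediate-early genes were examined in cells sorted from the mouse mammary gland: Fos, Fosb, Jun, Junb, Jund, Atf3, Egr1, Ier2, Ier3 and Dusp1. These 10 genes were taken by symbol from a table of 23951 gene rows, and all 10 were found there. All 10 also passed the filter on low values (1 FPKM or more in at least 3 libraries), which kept 9503 genes for testing. The unit is taken to be FPKM, a read density corrected for transcript length and for library size, since the deposited table names none. AP-1 is a dimer of a Fos family and a Jun family protein, 2 Jun proteins, or a Jun and an ATF family protein, that binds DNA through a basic leucine zipper. Immediate-early genes are transcribed within minutes of a stimulus, without new protein synthesis, through MAP kinases and the factors SRF, ELK and CREB. In the mammary gland they respond to growth factors and stress, and they are also well known to be induced while a tissue is taken apart into single cells.

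The data were 9 RNA-seq libraries, 3 for each of 3 genotypes, all from female mice of mixed strain background. All mice carried a Rosa26 reporter in which a stop cassette precedes YFP (R26Y), and all received Ad-K8-Cre, an adenovirus with Cre recombinase behind the keratin 8 promoter, into the mammary ducts. Cells positive for YFP were sorted 1 month later. The WT group had the reporter alone, the p53-null group also had floxed Trp53 on both alleles (Trp53L/L), and the p53/Brca1-null group had floxed Trp53 and floxed Brca1 (Trp53L/L;Brca1L/L). Controls therefore also received virus and Cre, and the keratin 8 promoter aims recombination at luminal cells. The labels give neither the age of the mice nor whether a library came from 1 mouse or a pool, so a p-value here reflects variation among these libraries only, and that variation may be technical.

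Summed FPKM per library lay between 359976 and 433880, and the read depth itself is unknown. The luminal keratins Krt8 (1136 to 4385 FPKM) and Krt18 (1460 to 6009 FPKM) and the epithelial adhesion gene Epcam (121 to 577 FPKM) were high in all 9 libraries. Myeloid and MHC class II genes were high there too, with Cd74 at 859 to 4427 FPKM and Lyz2 at 503 to 3313 FPKM. Trp53 ranged from 0.858 to 55.7 FPKM over the libraries labelled p53-null or p53/Brca1-null and from 1.35 to 25.5 in WT, and Brca1 was listed at 0 in 8 of 9 libraries. These values do not check the genotypes, so the groups below are the labelled ones. WT replicates 1 and 2 shared low signal: over 145 genes above 0 and below 2 FPKM in replicate 1 and above 20 FPKM in replicate 2, the value in replicate 1 was a median of 7.52% of that in replicate 2. The 10th and 90th percentiles of that share were 6.04% and 8.71%, a spread of 1.44 times, against 6.27 times or more for each of the other ordered pairs of libraries. Most fitted log2 differences from WT are therefore also given without WT replicate 1, and for some genes with that share of replicate 2 subtracted from it.

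Upstream sequence was available for 8 of the 10 genes in RefSeq's GRCm38.p6 annotation, as the 250 bases before the annotated start. Egr1 and Ier2 had none and were not searched. It was searched on both strands for the core of the cyclic AMP response element (CRE), TGACGT, a letter sequence bound by CREB and ATF family proteins. The core was present before 3 of the 8 genes (Atf3, Dusp1 and Fos) and in 6.47% of all 32851 such windows. These 3 windows are shown because they hold the regulatory motif tied to immediate-early induction, with the core in capitals. Fos carried it 66 bases before the start, at chr12:85473640-85473889 on the plus strand. Atf3 carried it 8 bases before the start, read on the other strand, at chr1:191183334-191183583 on the minus strand. Dusp1 carried it 191 and 143 bases before the start, at chr17:26508473-26508722 on the minus strand, and the second copy is extended to the full palindrome TGACGTCA, which 1.55% of all windows hold.
Fos: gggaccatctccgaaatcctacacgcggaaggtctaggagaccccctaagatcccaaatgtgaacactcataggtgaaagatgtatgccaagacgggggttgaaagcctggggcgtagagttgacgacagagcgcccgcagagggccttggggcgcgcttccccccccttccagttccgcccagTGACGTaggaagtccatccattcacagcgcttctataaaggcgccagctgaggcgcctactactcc
Atf3: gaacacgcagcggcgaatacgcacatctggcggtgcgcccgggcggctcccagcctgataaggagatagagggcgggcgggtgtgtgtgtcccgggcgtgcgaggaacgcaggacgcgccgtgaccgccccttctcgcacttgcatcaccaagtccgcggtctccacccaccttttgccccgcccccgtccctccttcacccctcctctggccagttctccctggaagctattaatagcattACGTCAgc
Dusp1: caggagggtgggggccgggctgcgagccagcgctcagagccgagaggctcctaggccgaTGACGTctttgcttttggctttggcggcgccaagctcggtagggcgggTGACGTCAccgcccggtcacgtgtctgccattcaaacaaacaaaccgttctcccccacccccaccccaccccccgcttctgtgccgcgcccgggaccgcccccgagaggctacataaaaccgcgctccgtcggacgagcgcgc
The AP-1 site TGAGTCA, searched on both strands, was in none of the 8 windows and in 4.46% of all windows. The CArG box, bound by SRF, was in none of the 8 and in 1.47% of all. The TATA motif TATAAA, searched on both strands, was in the window of Fos alone among the 8, and in 12.4% of all windows. The windows of the 8 genes had a median GC content of 63.2%, against 52.4% for all windows. A match describes these letters only, and a missing match says that the letters lie outside this window or are absent from it.

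All 10 genes were among the more abundant transcripts of these cells. Atf3, an ATF family repressor and activator induced by stress, had the highest mean FPKM of the 10 in each genotype, above 96.9% to 99.5% of tested genes within a library. Fos, Jun, Junb and Jund lay above 90.4% of tested genes or more in every library. The lowest within-library positions were those of Egr1, a zinc finger factor, at 58.1% to 91.9%, and Fosb, at 65.0% to 94.2%. In WT the order of mean FPKM was Atf3 at 696, Fos at 276, Jund at 234, Jun at 212, Junb at 175, Ier2 at 119, Fosb at 92.9, Dusp1 at 89.7, Ier3 at 72.2 and Egr1 at 39.7. Only Atf3 stood clear of its neighbour in that order, with every WT value above every WT value of Fos. With both genes floxed the order differed, with Fos in place 6, Ier3 in place 4 and Fosb last at 16.2 FPKM. There Ier2 was the 1 gene clear of the next gene down, as it was in p53-null. Together the 10 genes took 0.461%, 0.650% and 0.475% of the summed FPKM of the WT libraries, 0.467%, 0.793% and 0.344% of the p53-null libraries, and 0.216%, 0.277% and 0.359% of the p53/Brca1-null libraries. All 3 p53/Brca1-null shares lay below all 3 WT shares, while p53-null replicate 2 had the highest share and p53-null replicate 3 lay among the p53/Brca1-null shares.

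**Figure D1:**
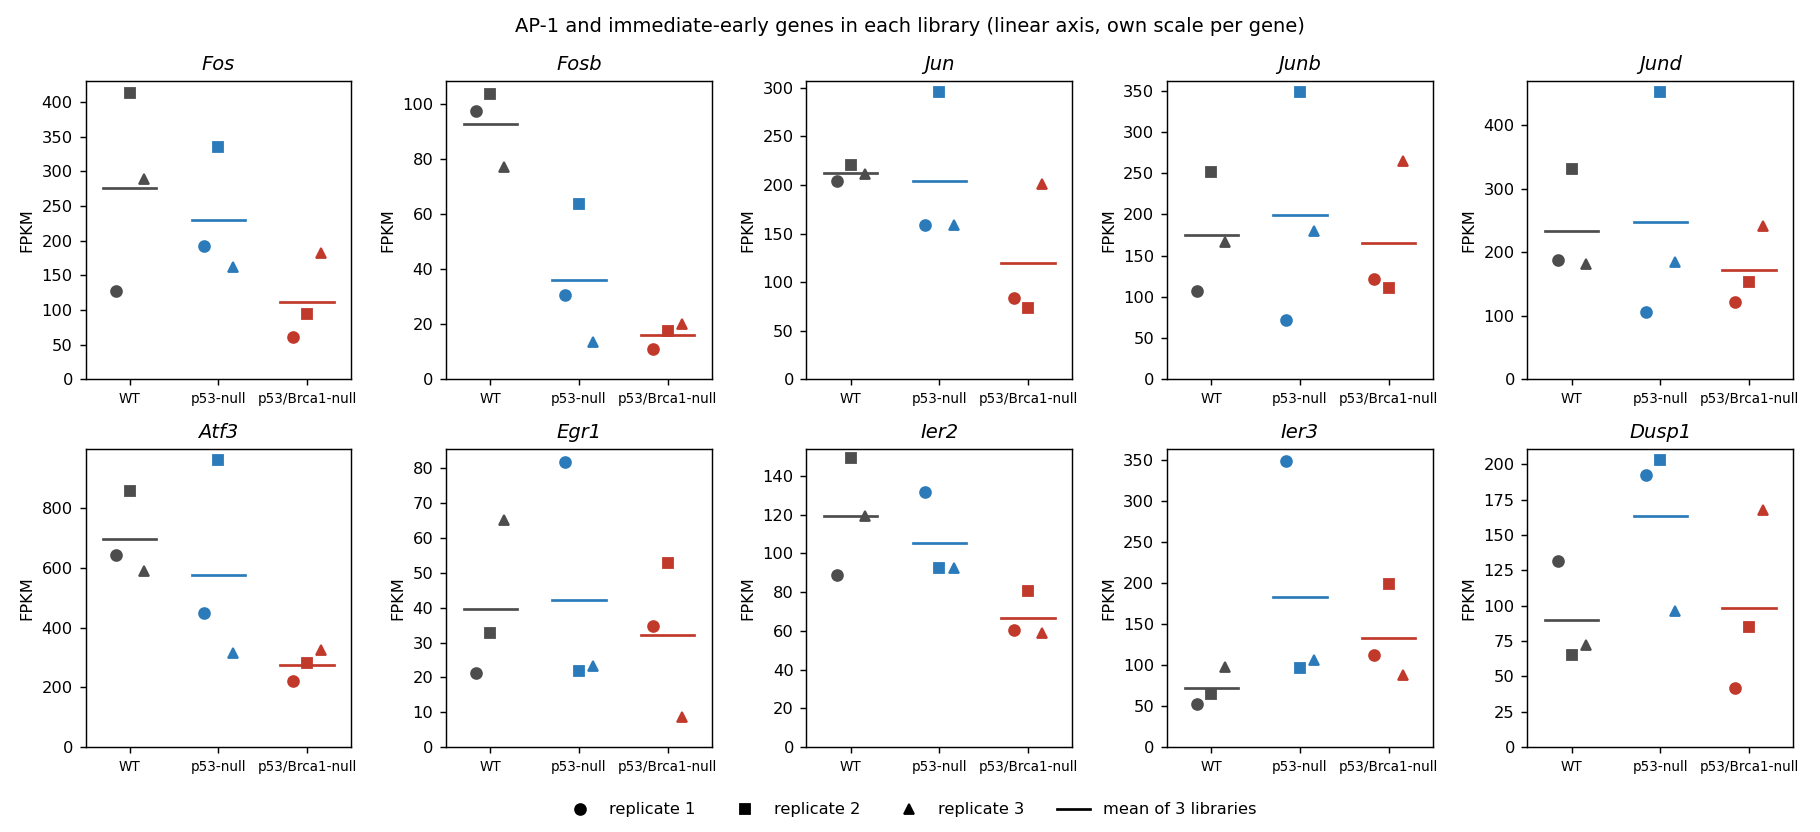
FPKM of each of the 10 genes (vertical axis, linear from 0, own scale per gene) in the 3 libraries of each genotype (horizontal axis), with symbols for the replicate and a line for the mean. Fosb and Atf3 in p53/Brca1-null libraries lie below all WT libraries (Fosb at 11.04 to 19.9 against 77.1 to 104 FPKM), while Junb, Jund and Egr1 overlap.

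Among the Fos family genes, Fosb showed the largest fitted difference from WT of the 10, in both null genotypes. Fosb, whose protein and its short splice form pair with Jun proteins, had WT values of 97.6, 104 and 77.1 FPKM, p53-null values of 30.5, 63.7 and 13.6, and p53/Brca1-null values of 11.04, 17.7 and 19.9. Every WT library was above every other library, and the 2 lower groups overlapped through p53-null replicate 3. On a log2(FPKM + 1) scale, where differences between low values shrink, the difference between p53/Brca1-null and WT was -2.47 ± 0.73 (SE), with a mean FPKM 0.175 times that of WT. It did not pass the test over all genes (limma adjusted p = 0.167, unadjusted p = 0.00373). For p53-null against WT it was -1.59 ± 0.73 (limma adjusted p = 0.411), and between the null genotypes -0.89 ± 0.73 (limma adjusted p = 0.999). Without WT replicate 1 the difference of p53/Brca1-null from WT was -2.43 (limma adjusted p = 0.207), and it was -2.43 (limma adjusted p = 0.259) after the subtraction, with adjusted p from 0.126 to 0.360 over 19 other settings. The p53-null difference of Fosb was -1.54 without WT replicate 1. In bulk RNA such as this, fewer cells that express a gene and less of its RNA per cell cannot be told apart.

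Fos, the founding Fos family gene, measured 127, 413 and 289 FPKM across WT libraries, 193, 335 and 161 across p53-null libraries and 60.4, 93.5 and 183 across p53/Brca1-null libraries. The WT values spread by 3.26 times, and the p53/Brca1-null range reached into the WT range through WT replicate 1 and p53/Brca1-null replicate 3. The log2 difference of p53/Brca1-null from WT was -1.28 ± 0.54 (limma adjusted p = 0.358, unadjusted p = 0.0295). Without WT replicate 1 it was -1.76 (limma adjusted p = 0.202), and without WT replicate 2 it was -0.91 (limma adjusted p = 0.493), while the subtraction gave -1.15. The limma adjusted p ran from 0.202 to 0.616 over the 19 settings. Against p53-null the p53/Brca1-null difference was -1.10 ± 0.54 (limma adjusted p = 0.999), and p53-null differed from WT by -0.18 ± 0.54 (limma adjusted p = 0.924), or -0.66 without WT replicate 1, a sign that turned with quantile normalization, without WT replicate 2 and without p53-null replicate 3.

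The ratio of Fosb to Fos within a library does not depend on how libraries are scaled to each other, and it was chosen after the values were seen. It was 0.770, 0.252 and 0.267 in WT, 0.158, 0.190 and 0.0845 in p53-null, and 0.183, 0.189 and 0.109 in p53/Brca1-null. All WT ratios lay above all ratios of both other genotypes, with WT replicate 1 far above the other 2 WT libraries. WT replicate 1 also had the lowest Fos value of that group.

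Atf3 had the smallest p of the 10 genes. It had WT values of 641, 857 and 590.3 FPKM, p53-null values of 449, 961 and 317, and p53/Brca1-null values of 221, 281 and 326. The p53/Brca1-null values were all below the WT values, whereas the p53-null values spanned from the p53/Brca1-null level to the highest value of any library. The p53/Brca1-null mean, 276 ± 52.4 FPKM (SD, n = 3), was 0.397 times the WT mean, 696 ± 142 FPKM, but the log2 difference of -1.33 ± 0.39 (SE) did not pass over all genes (limma adjusted p = 0.161, unadjusted p = 0.00345). It was -1.38 without WT replicate 1 (limma adjusted p = 0.242) and -1.28 after the subtraction (limma adjusted p = 0.232), within a range of 0.132 to 0.465 over the 19 settings. The p53-null libraries differed from WT by -0.42 ± 0.39 (limma adjusted p = 0.706), or -0.47 without WT replicate 1, and p53/Brca1-null from p53-null by -0.91 ± 0.39 (limma adjusted p = 0.917, unadjusted p = 0.0319).

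The Jun family genes, whose products supply the other side of the AP-1 dimer, differed among themselves. Jun stood at 205, 221 and 211 FPKM in WT, the narrowest spread of any of the 10 genes within a genotype (highest over lowest 1.08 times). The p53-null libraries had 159, 296 and 158 FPKM and the p53/Brca1-null libraries 84.1, 73.3 and 201 FPKM, so that p53/Brca1-null replicate 3 lay just under the WT range and the other 2 far under it. The log2 difference of p53/Brca1-null from WT was -0.97 ± 0.48 (limma adjusted p = 0.424), and from p53-null -0.86 ± 0.48 (limma adjusted p = 0.999). Without WT replicate 1 the difference of Jun from WT was -1.001.

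Junb, the family member induced with Fos in many cell types, measured 107, 252 and 166 FPKM across WT libraries, 71.3, 348 and 180.2 across p53-null libraries and 121, 111 and 265 across p53/Brca1-null libraries. All 3 ranges overlapped, and p53-null differed from WT by 0.0020 ± 0.58 and p53/Brca1-null by -0.11 ± 0.58 (limma adjusted p of 0.999 and 0.960). They were -0.31, a turned sign, and -0.42 without WT replicate 1. Jund, the most constitutively expressed Jun gene in many tissues, had WT values of 188, 331 and 182 FPKM, p53-null values of 106, 452 and 184, and p53/Brca1-null values of 122, 153 and 242. Its groups overlapped too, with a difference of -0.44 ± 0.52 between p53/Brca1-null and WT (limma adjusted p = 0.754), or -0.57 without WT replicate 1.

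Set against each other per transcript length, Fos and Fosb together amounted to 0.449, 0.642 and 0.653 times the FPKM of Jun, Junb and Jund together in WT. The ratio was 0.662, 0.363 and 0.335 in p53-null and 0.218, 0.329 and 0.286 in p53/Brca1-null. All p53/Brca1-null ratios were below all WT ratios, and p53-null replicate 1 had the highest ratio of the 9 libraries while its other 2 libraries lay just above the p53/Brca1-null range. Junb made up 21.3%, 31.3% and 29.7% of the Jun family FPKM across WT libraries and 37.0%, 32.9% and 37.4% across p53/Brca1-null libraries, again without overlap, with 21.2%, 31.7% and 34.5% in p53-null. These ratios were chosen after the values were seen and carry no test.

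**Figure D2:**
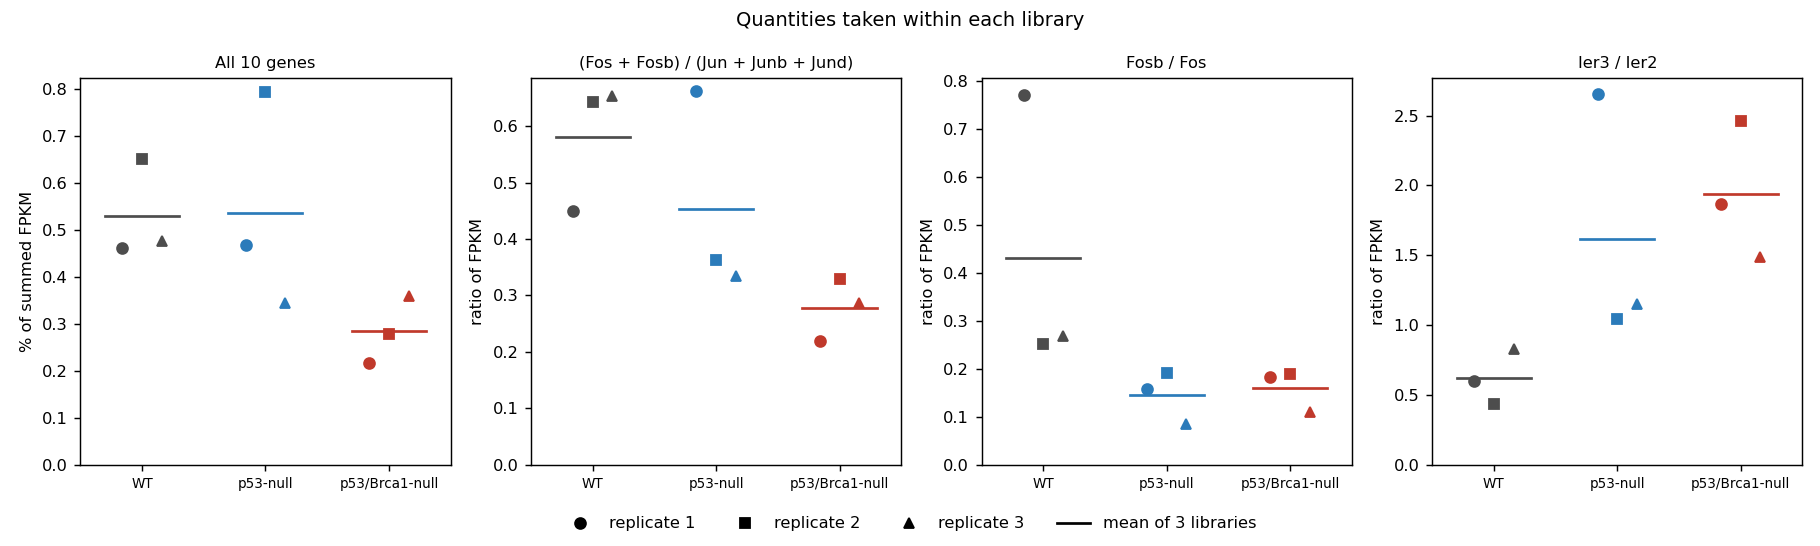
From left to right, for the 3 libraries of each genotype: the share of summed FPKM held by all 10 genes (percent), and the FPKM ratios of Fos plus Fosb to the 3 Jun genes, of Fosb to Fos, and of Ier3 to Ier2. Symbols are replicates and lines are means of 3 libraries. The Fosb to Fos ratio of 0.770 in WT replicate 1 stands far from the others, and Ier3 to Ier2 lies at 0.437 to 0.825 in WT and at 1.04 or more elsewhere.

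Ier2 and Ier3, both small immediate-early genes, differed from WT with opposite signs in the p53/Brca1-null libraries. Ier2 encodes a nuclear protein, and measured 89.0, 149 and 119 FPKM across WT libraries, 131, 92.3 and 92.3 across p53-null libraries and 60.3, 80.7 and 59.0 across p53/Brca1-null libraries. The p53/Brca1-null libraries were below all libraries of both other genotypes, yet the difference from WT, -0.81 ± 0.50, did not pass (limma adjusted p = 0.521), nor did the difference from p53-null, -0.65 ± 0.50 (limma adjusted p = 0.999). Ier3, a regulator of cell survival also known as IEX-1, had WT values of 53.1, 65.2 and 98.2 FPKM, p53-null values of 349, 96.2 and 106, and p53/Brca1-null values of 113, 199 and 87.6. Single values crossed between WT and each null genotype, and the mean was 2.54 times that of WT in p53-null and 1.84 times in p53/Brca1-null, without passing the test. The log2 differences from WT were 1.12 ± 0.58 and 0.83 ± 0.58 (limma adjusted p of 0.460 and 0.575). Replicate 1 of p53-null was far above its other 2 libraries, and without it the p53-null difference was 0.52. Without WT replicate 1 the differences were 0.92 and 0.64, and that of Ier2 in p53/Brca1-null was -1.005. The ratio of Ier3 to Ier2, chosen after the values were seen, was 0.597, 0.437 and 0.825 in WT, 2.65, 1.04 and 1.15 in p53-null, and 1.87, 2.46 and 1.49 in p53/Brca1-null. Every null library lay above every WT library in that ratio.

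Egr1, a zinc finger factor induced through SRF and ELK proteins, measured 21.2, 32.9 and 65.1 FPKM across WT libraries, 81.9, 21.8 and 23.3 across p53-null libraries and 34.7, 52.9 and 8.62 across p53/Brca1-null libraries. It spread by 9.50 times over the 9 libraries, as wide as Fosb at 9.41 times. Within WT, p53-null and p53/Brca1-null it spread by 3.08, 3.75 and 6.13 times, and Fosb by 1.35, 4.68 and 1.81 times. Unlike those of Fosb, the WT values of Egr1 overlapped both null genotypes. From WT, p53-null differed by -0.038 ± 0.86 and p53/Brca1-null by -0.48 ± 0.86 (limma adjusted p of 0.991 and 0.856). These became -0.40 and -0.84 without WT replicate 1. Dusp1, a phosphatase that switches off the MAP kinases upstream of these genes, had WT values of 132, 64.9 and 72.6 FPKM, p53-null values of 193, 203 and 96.0, and p53/Brca1-null values of 42.0, 85.1 and 168. Its p53-null libraries overlapped WT only through WT replicate 1 and p53-null replicate 3, with a difference of 0.86 ± 0.59 (limma adjusted p = 0.574) that was 1.17 without WT replicate 1. The p53/Brca1-null libraries differed from WT by -0.014 ± 0.59 (limma adjusted p = 0.998), and its sign turned in 5 of 19 other settings, among them without WT replicate 1, at 0.30.

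**Figure D3:**
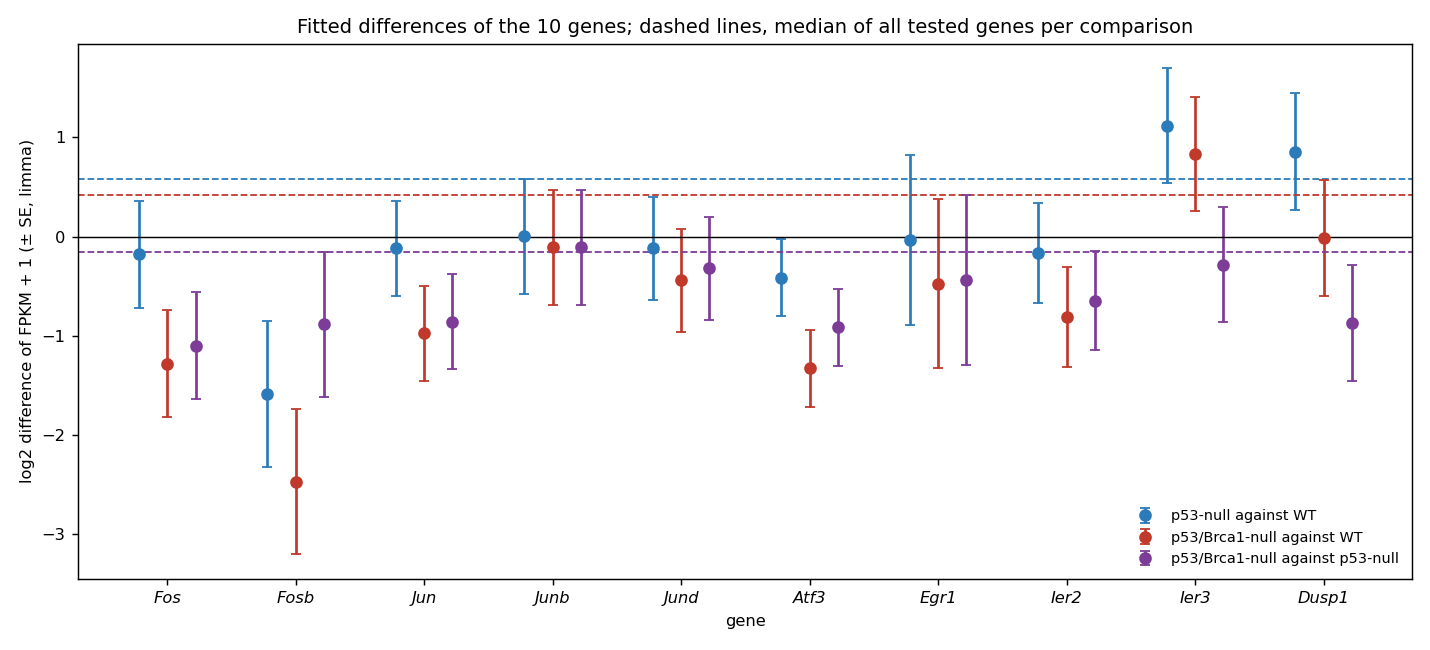
Fitted log2 differences of FPKM + 1 (vertical axis; points, bars are ± SE from limma) for each of the 10 genes (horizontal axis) in the 3 comparisons, with the zero line and dashed lines at the median of all tested genes per comparison. All 10 points of p53/Brca1-null against p53-null lie below 0, and Ier3 is the 1 gene above 0 in p53/Brca1-null against WT.

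By comparison, none of the 10 genes passed in any of the 3. In p53-null against WT, 0 of 10 passed limma's adjusted threshold, as did 0.0105% of all tested genes. At an unadjusted p under 0.05, Fosb was the 1 member lower, against 0.989% of all tested genes, and no member was higher, against 10.8% of all. The groups did not overlap for Fosb alone among the members, and 2.16% of all genes were lower without overlap. The median log2 difference of the 10 was -0.12, against 0.58 for all tested genes, so that 8 of the 10 lay below that median. The medians were -0.33 and 0.34 without WT replicate 1, and without WT replicate 2 they were 0.085 and 0.85. The 0.58 was not fixed: it was -0.04 with quantile normalization, where the members' median was -0.0094 and 4 of 10 lay below the median of all genes. The members' median was -0.39, against 0.01 for all genes, once the count of detected genes entered as a covariate.

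In p53/Brca1-null against WT, 0 of 10 passed, as did 0.253% of all tested genes. At an unadjusted p under 0.05, 3 members (Atf3, Fosb and Fos) were lower, against 2.09% of all genes, and 0 were higher, against 10.1%. Without overlap 4 members (Fosb, Jun, Atf3 and Ier2) were lower, against 3.83% of all genes, and 0 higher, against 12.7%. The members' median was -0.64 against 0.41 for all genes. With quantile normalization it was -0.75 against -0.04, and with the covariate -0.91 against 0.05. Without WT replicate 1 it was -0.92 against 0.20, with 4 members lower at an unadjusted p under 0.05. This comparison and the preceding one share the WT libraries, so their values are not independent.

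In p53/Brca1-null against p53-null, 0 of 10 passed, as did 0% of all tested genes. All 10 differences were negative, from -0.11 for Junb to -1.10 for Fos, as were those of 5426 of 9503 tested genes. The members' median was -0.75 against -0.16 for all genes. Atf3 was the 1 member lower at an unadjusted p under 0.05, against 2.88% of all genes, and 0 were higher, against 1.85%. Ier2 was the 1 member lower without overlap, against 8.02% of all genes, and 0 were higher, against 4.87%. With library weights the median of the 10 was -0.47 against -0.30 for all genes, with 8 of 10 negative, since Egr1 and Ier3 turned to 0.30 and 0.32.

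Within a genotype the 10 genes did not share 1 order of libraries. Fos, Fosb, Jun, Junb, Jund and Atf3 were each highest in the same library of a genotype: replicate 2 in WT, replicate 2 in p53-null and replicate 3 in p53/Brca1-null. Dusp1 was highest in the same p53-null and p53/Brca1-null libraries but in replicate 1 of WT. Egr1 and Ier3 were highest in other libraries: replicate 3 in WT, replicate 1 in p53-null and replicate 2 in p53/Brca1-null. In p53/Brca1-null replicate 3, Egr1, Ier2 and Ier3 were at their lowest of the genotype while the 6 AP-1 family genes and Dusp1 were at their highest. Replicate numbers only name libraries here.

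**Figure D4:**
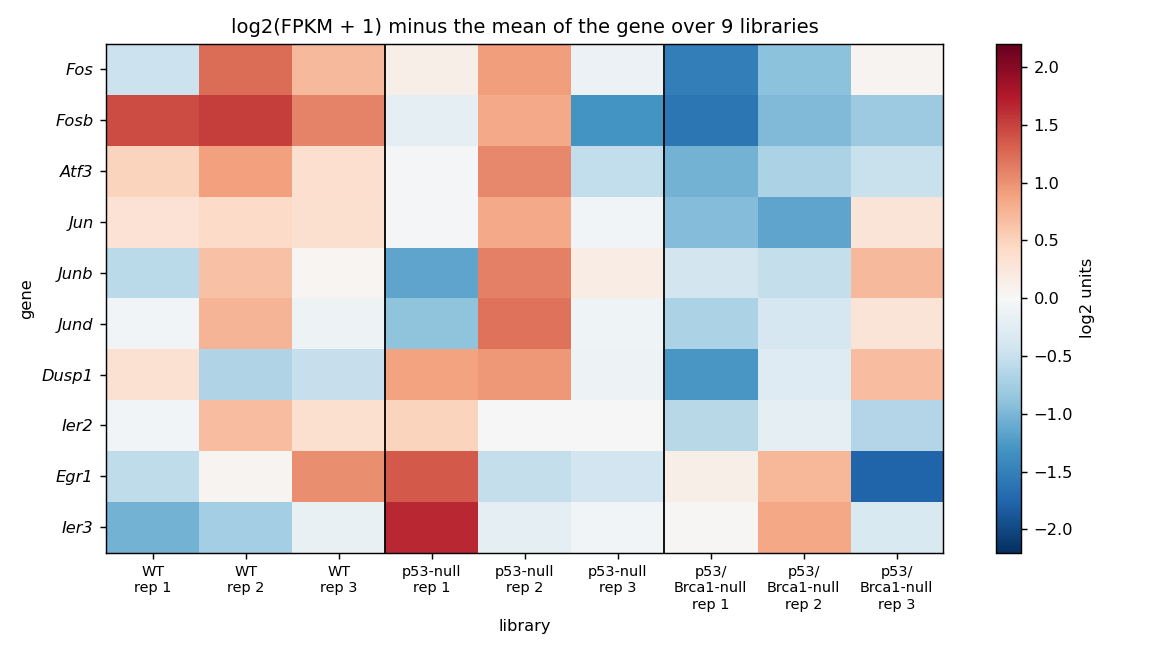
Log2(FPKM + 1) of each gene (rows) in each library (columns, grouped by genotype), minus that gene's mean over the 9 libraries; red is above and blue below the mean. Fosb and Atf3 are red in every WT library and blue in every p53/Brca1-null library, Fos is blue in WT replicate 1 (127 FPKM), and Egr1 and Ier3 peak in p53-null replicate 1 (81.9 and 349 FPKM).

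Likeness to other genes was measured as the root mean square difference between profiles centred on each gene's mean, on the log2(FPKM + 1) scale over 9 libraries. The pool was 4742 genes at or above the median level, without the 10 genes themselves. The nearest to Fos was Klf2, a Kruppel-like factor that is itself an immediate-early gene, at 0.22 against a spread of 0.83 for Fos itself. Klf2 measured 19.2, 62.8 and 42.2 FPKM across WT libraries, 28.7, 79.2 and 21.3 across p53-null libraries and 9.43, 13.4 and 33.6 across p53/Brca1-null libraries, with its lowest values in the same 2 libraries as Fos. Next to Fos came 0610011F06Rik (0.41) and Pmepa1 (0.44), and the last was also near Atf3 (0.39), after Sec63 (0.39) and before S100a6 (0.42). Nearest to Jun were the casein kinase gene Csnk1d (0.21), Dst (0.36) and Srrm2 (0.36). Nearest to Egr1 were Crebbp, a coactivator of CREB (0.46), Hnrnpd (0.51) and Larp4 (0.52). Among the 10 genes themselves the closest pair was Junb and Jund, at 0.29.

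Other AP-1 family and dimer partner genes formed a further list. All 18 genes of that list were tested and 0 passed in any comparison by limma. At an unadjusted p under 0.05, 1 was higher and 1 lower in p53-null against WT, 2 were higher in p53/Brca1-null against WT and 1 was higher in p53/Brca1-null against p53-null. Of all tested genes, 10.8%, 10.1% and 1.85% were higher at that p in the 3 comparisons, and 0.989%, 2.09% and 2.88% lower. The list's medians were -0.05, 0.21 and 0.09 in those comparisons. Fosl1, the Fos family gene that encodes FRA-1, differed from WT with the sign opposite to Fosb, with WT libraries at 2.97, 42.4 and 6.51 FPKM, p53-null libraries at 83.5, 62.1 and 87.3, and p53/Brca1-null libraries at 39.5, 66.6 and 37.9. Its p53-null values all lay above WT, as did those of 14.1% of all tested genes. The log2 difference of p53-null from WT was 2.84 ± 0.85 (limma adjusted p = 0.196), and that of p53/Brca1-null was 2.12 ± 0.85 (limma adjusted p = 0.337). Both moved with the WT libraries: without WT replicate 1 they were 2.11 and 1.39, after the subtraction 3.50 and 2.79, and without WT replicate 2 they were 3.83 and 3.12. The WT replicate 1 value of Fosl1 was itself within the range of the share of replicate 2 described above. Batf, a Jun partner of immune cells, had a WT mean of 16.3 FPKM, a p53-null mean of 27.8 and a p53/Brca1-null mean of 65.6 (3.35 ± 1.25 against WT, limma adjusted p = 0.303), a difference of 3.26 without WT replicate 1 and 2.02 without WT replicate 3. Maf stood higher in p53/Brca1-null than in p53-null by 2.08 ± 0.89 (limma adjusted p = 0.926). Batf2 rested on WT replicate 1, at 126 FPKM, was listed at 0 in 5 of the 9 libraries, and no longer passed the filter without that library.

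Of 40 other immediate-early genes, 38 were tested and 0 passed in any comparison by limma. At an unadjusted p under 0.05, 6 were higher and 0 lower in p53-null against WT, and 3 were higher and 0 lower in p53/Brca1-null against WT. In p53/Brca1-null against p53-null, 0 were higher and 1 lower. The shares of all tested genes, higher and lower, were 10.8% and 0.989%, 10.1% and 2.09%, and 1.85% and 2.88%. The list's medians, 0.58, 0.11 and -0.40, compare with 0.58, 0.41 and -0.16 for all genes. Sgk1, a kinase gene induced by serum and glucocorticoids, was the lower gene, with a p53-null mean of 464 FPKM, a p53/Brca1-null mean of 196 and no overlap (log2 difference -1.26 ± 0.48, limma adjusted p = 0.822). Without overlap between the null genotypes, 8 of the 38 were lower and 2 higher, against 8.02% and 4.87% of all genes. Mcl1, an anti-apoptotic gene, had WT values of 7.94, 44.6 and 78.7 FPKM and p53/Brca1-null values of 132, 103 and 122 (1.90 ± 0.72, limma adjusted p = 0.305). That difference was 0.98 without WT replicate 1 (limma adjusted p = 0.480) and 2.56 without WT replicate 3. Ier5l and the kinase gene Plk3 stood higher in p53-null than in WT, with Ier5l at a log2 difference of 2.98 ± 1.08 and Plk3 at means of 55.7 and 15.4 FPKM (limma adjusted p of 0.292 and 0.352). Their log2 differences were 2.72 and 2.27 without WT replicate 1, and without WT replicate 3 they were 2.23 and 1.32.

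Upstream of the 10 genes, 16 of 22 MAP kinase pathway and SRF, ELK or CREB genes were tested, and 0 passed in any comparison by limma. In p53-null against WT 2 were higher at an unadjusted p under 0.05, in p53/Brca1-null against WT 2 were higher and 1 lower, and between the null genotypes 0 were. Of all tested genes, 10.8%, 10.1% and 1.85% were higher in these comparisons, and 0.989%, 2.09% and 2.88% lower. Mapk3, which encodes ERK1, had a WT mean of 1.51 FPKM, a p53-null mean of 16.2 and a p53/Brca1-null mean of 10.6, with both null groups wholly above WT (limma adjusted p of 0.237 and 0.333). The log2 differences of Mapk3, 2.85 and 2.34, were 2.44 and 1.93 without WT replicate 1. Hras had means of 11.02, 36.4 and 43.7 FPKM, also without overlap with WT (limma adjusted p of 0.385 and 0.342). Its log2 differences, 2.23 and 2.36, were 1.16 and 1.30 without WT replicate 1, and 2.98 and 3.11 without WT replicate 3. After the subtraction they were 2.51 and 2.64. Hras measured 0.787 FPKM in WT replicate 1 and 11.2 in replicate 2, within the range of the share described above. Mkl1, an actin-regulated partner of SRF, had WT values of 12.6, 21.1 and 2.26 FPKM and p53/Brca1-null values of 0.476, 0.237 and 1.99 (-2.50 ± 1.04, limma adjusted p = 0.353), with -2.27 without WT replicate 1. Map2k7, a kinase of the JNK branch, differed by 1.77 ± 0.84 between p53-null and WT (limma adjusted p = 0.425), or 1.64 without WT replicate 1. Its values in WT replicates 1 and 2, 0.0701 and 0.913 FPKM, were within that range too.

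Of 11 other MAP kinase phosphatase genes 10 were tested, and 0 passed by limma in any comparison. Between the null genotypes 0 were higher or lower at an unadjusted p under 0.05, against 1.85% and 2.88% of all genes. Compared with WT, 1 was higher at that p in p53-null, against 10.8% of all genes, and 1 in p53/Brca1-null, against 10.1%. Dusp2 was that gene in p53/Brca1-null, at 0, 0 and 0.0262 FPKM in WT against 0.966, 13.6 and 19.8 (limma adjusted p = 0.276), and Dusp4 in p53-null, with means of 0.514 FPKM in WT and 9.46 (limma adjusted p = 0.363). Dusp5 overlapped between all groups, with means of 11.99 FPKM in WT and 34.0 in p53-null (limma adjusted p = 0.500). Its WT replicate 1 value, 2.55 FPKM against 29.4 in replicate 2, was within the range of the share described above. Dusp8 was low throughout, with a WT mean of 2.32 FPKM and a p53/Brca1-null mean of 0.325 (limma adjusted p = 0.547). Leaving out WT replicate 1, the log2 differences were 3.06 for Dusp2, 2.41 for Dusp4, 1.25 for Dusp5 (1.85 with it) and -1.44 for Dusp8 (-1.18 with it), and Dusp8 was at -0.66 without WT replicate 3.

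Among 14 textbook AP-1 target genes, 13 were tested and Sprr1a was the 1 gene that passed. It did so in p53/Brca1-null against WT, where 0.253% of all tested genes passed. The list was chosen with earlier results of these data known, so this count carries no test. Sprr1a, a cornified envelope gene whose promoter is a known AP-1 target, fell in p53/Brca1-null from 111, 153 and 106 FPKM in WT to 0, 5.05 and 0.535 (log2 difference -5.87 ± 0.87, limma adjusted p = 0.00730), and passed in all 19 other settings, at -5.93 without WT replicate 1. In p53-null it stood at 25.9, 61.4 and 52.1 FPKM, below all WT libraries, as were 2.16% of all tested genes. Sprr1a did not pass there (-1.45 ± 0.87, limma adjusted p = 0.518), with -1.52 without WT replicate 1. From p53-null to p53/Brca1-null it differed by -4.41 ± 0.87 (limma adjusted p = 0.315). The target list as a whole had medians of 0.87, 0.21 and -0.32 in the 3 comparisons, against 0.58, 0.41 and -0.16 for all genes. At an unadjusted p under 0.05 it held 1 gene higher and 0 lower in p53-null against WT, and 1 higher and 2 lower in p53/Brca1-null against WT. Between the null genotypes it held 1 of each. The shares of all tested genes, higher and lower, were 10.8% and 0.989%, 10.1% and 2.09%, and 1.85% and 2.88%.

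Several library features moved with the groups. The 7 inducible heat shock genes, which like the 10 genes respond to stress and tissue handling, summed to 3435 to 4426 FPKM in WT, 1548 to 3225 in p53-null and 1975 to 3161 in p53/Brca1-null. All 7 had a negative difference from WT in both null genotypes, with 1 lower at an unadjusted p under 0.05 in each (Hspe1 in p53-null, limma adjusted p = 0.150, and Hspb1 in p53/Brca1-null, limma adjusted p = 0.295). Of all 9503 tested genes, 2830 and 3449 were negative in these comparisons, and 0.989% and 2.09% were lower at that p. Hsph1 and Hspd1 differed from WT by -1.22 ± 0.63 and -0.95 ± 0.49 in p53-null (limma adjusted p of 0.457 and 0.459). Leaving out WT replicate 1, the differences were -1.86 for Hspe1, -0.86 for Hspb1, -0.88 for Hsph1 and -1.14 for Hspd1. Between the null genotypes 6 of the 7 differences were positive, whereas the 10 genes had negative differences. All 10 luminal markers (median -0.47), all 7 tested basal markers (median -1.40) and all 6 tested endothelial markers (median -0.60) were negative there too. So were 5426 of all 9503 tested genes, with 4076 positive. Of the 13 tested immune markers, 11 were positive and 2 negative there (median 1.71). At an unadjusted p under 0.05, 10 of them were higher and 0 lower, against 1.85% and 2.88% of all genes. All 4 red blood cell genes were positive (median 1.53), as were 3 of 5 tested fibroblast markers, while the 2 tested adipocyte markers were negative. The part of these markers in the result was not tested.

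The 14 immune markers, of which 13 were tested and 0 were at 0 in all libraries, summed to 2750 to 8091 FPKM in WT, 2949 to 6419 in p53-null and 8995 to 14486 in p53/Brca1-null, so that p53/Brca1-null lay above all others. Of the 13, 7 were higher at an unadjusted p under 0.05 in p53/Brca1-null than in WT, against 10.1% of all tested genes. H2-Aa, an MHC class II gene, passed there, with means of 1729 and 418 FPKM (log2 difference 2.05 ± 0.32, limma adjusted p = 0.0105). H2-Aa did not pass in 6 of 19 other settings, among them without WT replicate 2 (limma adjusted p = 0.0564), p53/Brca1-null replicate 2 (0.120) or p53/Brca1-null replicate 3 (0.0764). Ptprc, the pan-leukocyte gene, ranged from 0.338 to 14.5 FPKM. The 10 luminal markers summed to 6342 to 9994 FPKM in WT, 3846 to 16377 in p53-null and 4933 to 7438 in p53/Brca1-null, with p53-null replicate 2, the p53-null library highest in the 6 AP-1 family genes, also the highest here. The 9 basal markers, 7 tested, summed to 359.8 to 608, 314 to 1507 and 383 to 575 FPKM in the 3 genotypes. The 8 endothelial markers, 6 tested, summed to 0.0371 to 94.7, 22.5 to 560.4 and 47.2 to 174 FPKM. The 6 fibroblast markers, 5 tested, summed to 71.1 to 200.2, 81.0 to 136 and 47.3 to 458 FPKM. The 6 adipocyte markers, 2 tested and with Plin1 and Lep at 0 in all 9 libraries, summed to 143 to 1623, 605 to 5145 and 289.7 to 1396 FPKM, nearly all from Fabp4. The 4 red blood cell genes found, of 5, summed to 24.3 to 149, 34.4 to 233 and 56.9 to 939.8 FPKM. Genes at 1 FPKM or more numbered 4839 to 7320 in WT, 6286 to 9767 in p53-null and 7332 to 8213 in p53/Brca1-null. The part of other cell types and of heat shock gene levels in the differences of the 10 genes was not tested.

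**Figure D5:**
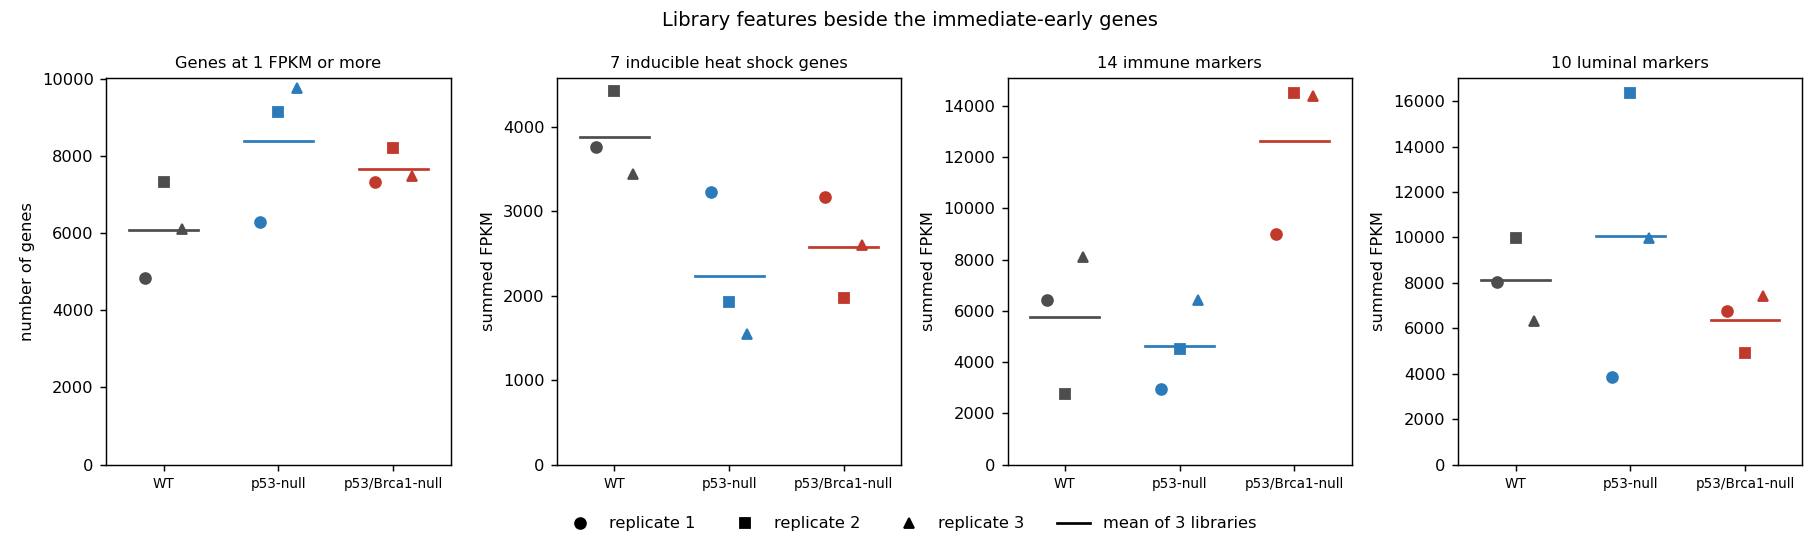
Genes at 1 FPKM or more (number) and the summed FPKM of 7 inducible heat shock genes, 14 immune markers and 10 luminal markers (vertical axes from 0) in the 3 libraries of each genotype, with symbols for replicates and lines for means. Heat shock sums are highest in WT (3435 to 4426) and immune sums highest in p53/Brca1-null (8995 to 14486).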

How the data were processed

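Per the labels' protocols, Trizol was used to extract RNA from the sorted cells, and a SMARTer kit for low input served for the libraries. The deposited values are taken as FPKM: the header names no unit, and this reading rests on non-integer values whose total varies between libraries. The build was mm9, per the submitters' processing notes, while aligner and quantifier were not given in the sources used here. Promoter coordinates are of another build, GRCm38.p6, and were used only to print sequence.

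The table's 92 spike-in rows were left out. Tests used limma 3.58.1 (R 4.3.3) on log2(FPKM + 1), with a coefficient for each genotype, 6 residual degrees of freedom, and both the trend and robust options. Genes had to reach 1 FPKM in at least 3 of the 9 libraries, which left 9503, and the Benjamini-Hochberg adjustment ran over all of them with a threshold of 0.05. Alternatives were a replicate block, the 6 compared libraries alone, no trend, quantiles made equal, the filter dropped or raised to 5 FPKM, 0.1 as the pseudocount, weights per library, a covariate counting detected genes, and each library left out. The fit was tested on simulated data. WT replicate 1 minus 7.52% of WT replicate 2 was chosen as an alternative after the data were seen.

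The 10 genes and all lists were chosen with earlier results of these data known, so lists are described by counts and medians and carry no test. Named genes are the 10 genes, each list gene that passed or else up to 4 per list with the smallest p, the 3 nearest profiles of Fos, Jun, Atf3 and Egr1, and the most abundant markers. Others were chosen after their values were seen.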

Additional observations from a re-analysis of the deposited data

How the results depend on the processing

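Across 19 other settings none of 570 recomputed differences of the 10 genes passed by limma, and the smallest adjusted p was 0.126 (Fosb, p53/Brca1-null against WT, quantile normalization). The sign was the same in every setting for 17 of 30 differences, among them Fos, Fosb, Jun, Jund, Atf3, Ier2 and Ier3 in p53/Brca1-null against WT. Some settings could not change a difference or its sign, only its p: the replicate block, the 6 libraries alone, no trend and other filters. Leaving out a library of the genotype not compared could not change it either, nor could the subtraction between the null genotypes. With 1 library left out, the median of the 10 ranged from -0.45 to 0.085 for p53-null against WT, being above 0 without WT replicate 2, from -0.92 to -0.58 for p53/Brca1-null against WT and from -0.87 to -0.59 between the null genotypes. The count of all genes that passed in p53/Brca1-null against WT, 24, ranged from 3 (without p53/Brca1-null replicate 2) to 73 (without WT replicate 3). It was 14 with the replicate block, 9 with only the 6 libraries compared, 16 with no filter, 50 without trend, 45 with quantile normalization, 56 with a pseudocount of 0.1, 4 with the covariate and 6 with the subtraction. In p53-null against WT, 1 became 22 without trend and 17 with the smaller pseudocount, 2 with library weights, 0 with the covariate or the 6 libraries alone, and 0 to 8 with 1 library left out. Between the null genotypes 0 became 19 with library weights and 1 with the 6 libraries alone.

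Signs turned in these cases, with no cause tested. In p53-null against WT, Fos was 0.010 with quantile normalization, Junb -1.05 and Egr1 0.48 with the covariate, and Egr1 0.019 with the subtraction. In p53/Brca1-null against WT, Dusp1 was 0.088 with library weights, 0.35 with the covariate and 0.0036 with the subtraction. Between the null genotypes Egr1 was 0.30 and Ier3 0.32 with library weights, and Junb 0.22 with the covariate. With 1 library left out, differences in p53-null against WT ranged from -0.66 to 0.19 for Fos, -0.41 to 0.034 for Jun, -0.53 to 0.60 for Junb, -0.68 to 0.36 for Jund, -0.64 to 0.39 for Egr1 and -0.36 to 0.012 for Ier2. In p53/Brca1-null against WT they ranged from -0.50 to 0.20 for Junb, -0.99 to 0.25 for Egr1 and -0.50 to 0.48 for Dusp1. Between the null genotypes they ranged from -0.71 to 0.43 for Junb, -0.80 to 0.24 for Jund, -0.95 to 0.29 for Egr1 and -0.62 to 0.31 for Ier3.

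Same-numbered libraries did not deviate together (correlations of deviations from the genotype means between -0.083 and 0.056), and not every library correlated best with its own number. With the replicate block 0 of the 10 genes passed in each comparison. The medians, -0.12, -0.64 and -0.75, could not change, since each genotype holds each replicate number once. The unknown read depth and 3 libraries a genotype limit the precision of each value.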

Other observations

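Other genes tracked single members of the set and are given as values, chosen after they were seen. The luminal keratins Krt18 and Krt8 were the nearest profiles to Jund among 4742 genes at or above the median level, at root mean square differences of 0.30 and 0.37 log2 units, against a spread of 0.62 for Jund itself. Krt8 was also the third nearest to Junb (0.37), after Kdm5a (0.31) and Mprip (0.33). Krt18 had WT values of 3400.0, 3755 and 2621 FPKM, p53-null values of 1460.4, 6009 and 3543, and p53/Brca1-null values of 2783, 2497 and 3269. Like Jund, it was highest in replicate 2 of WT, replicate 2 of p53-null and replicate 3 of p53/Brca1-null.

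The nearest profiles to Ier3 were those of Ncl (0.32), Cycs (0.40) and Npm1 (0.41). Ncl and Npm1 encode the nucleolar proteins nucleolin and nucleophosmin, and Cycs encodes cytochrome c. Ncl measured 29.0, 36.2 and 49.7 FPKM across WT libraries, 113, 45.9 and 51.1 across p53-null libraries and 52.98, 68.7 and 61.6 across p53/Brca1-null libraries. Ncl, Cycs, Npm1 and Ier3 were each highest of the 9 libraries in p53-null replicate 1.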
